A study of Mus musculus with 20 samples.

Results

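The 45 genes described here encode proteins that sense DNA damage, signal it and repair it. They were chosen by name, across 8 roles from damage signalling to nucleotide excision repair, and not by a measured value. Earlier results of these data were known at the time. Each was matched to 1 of the 47729 Ensembl gene identifiers in the count tables. All 45 passed the filter on low counts and stand among the 14820 genes tested.

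A DNA double-strand break is bound by the MRN complex (Mre11a, Rad50 and Nbn), which brings in the kinase ATM, while single-stranded DNA at stalled replication forks activates the kinase ATR. The kinases act through CHEK1 and CHEK2 and through mediator proteins such as MDC1 and 53BP1. Breaks are then joined end to end or copied from the sister chromatid by homologous recombination, which works in S and G2 phase, while damaged bases, crosslinks and mismatches have routes of their own. Many recombination, Fanconi anaemia and mismatch repair genes are transcribed mainly in cycling cells, under E2F factors.

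Polyadenylated RNA was sequenced from cultured colon fibroblasts of C57BL6/J mice, grown in 2D in medium with 10% serum. The 4 untreated libraries carry the labels' name wild-type fibroblasts, and no genotype is given for the cells of the other groups. Fibroblasts of 2 further groups were kept for 24 h in medium conditioned by organoids named APTK or APTKA, names that the labels do not expand. The last 2 groups, called irradiated APTK and irradiated APTKA here, received such medium in an arm of 5 fractions of 2 Gy. Whether the dose went to the organoids or to the fibroblasts is left unsaid in the labels. Untreated fibroblasts have no irradiated counterpart, and plain organoid medium without conditioning was not among the groups. Each group has 4 libraries, numbered I to IV. Since nothing ties them to distinct cultures or mice, the p-values speak only for library-to-library spread, part of which may be technical.

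Library totals were 17.3 to 31.6 M counts, the lowest in irradiated APTK II. The labelled cell type was met by its markers: 9 fibroblast genes summed to 28663 to 63010 CPM (counts scaled to a common library total) per library, lowest with APTKA medium, at 28663 to 32766 CPM. Epithelial markers summed to at most 1.7 CPM, with Epcam at no more than 0.105 CPM and Krt8 at 0 in 18 of 20 libraries. Immune markers summed to 4.59 to 9.95 CPM, with Lyz2 at up to 6.91 CPM and Cd3e at 0 in all 20 libraries. Endothelial markers summed to at most 1.56 CPM, and glial and mesothelial ones to at most 3.16 CPM. Smooth muscle and pericyte markers were well above these, with Myh11 at up to 383 CPM. They summed to 304 to 369 CPM untreated, 312 to 404 with APTK medium and 216 to 245 with APTKA medium. Irradiated APTK II stood apart within its group: it held the highest of 4 values for 21 of the 45 genes. In irradiated APTKA, library II was highest for 21 genes and library I lowest for 21.

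In untreated fibroblasts the levels per kilobase of exon ran from 17.5 ± 0.24 CPM per kb for Xrcc5, a subunit of the end-joining factor Ku, to 0.127 ± 0.0567 for Rad51b, a gene of homologous recombination (mean ± SD, n = 4). Nbn followed at 14.3 ± 0.649 and Parp1, the main sensor of single-strand breaks, at 13.6 ± 0.709 CPM per kb, a pair that lay within its spread. Msh6 stood at 10 ± 0.911, and Rnf168, Rad50 and Ercc1 lay close together at 8.86 ± 0.32, 8.38 ± 0.601 and 8.24 ± 0.784. The 14 genes below 0.5 CPM per kb were mostly genes of recombination and crosslink repair: Brca1, Rnf8, Blm, Brca2, Fanci, Fanca, Ung, Rad51c, Rad54l, Fancd2, Palb2, Exo1, Bard1 and Rad51b. Rad51b rested on 7 to 34 counts in a library, which limits what can be said of it.

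APTKA medium moved 32 of the 45 genes against untreated fibroblasts, 23 higher and 9 lower at an adjusted p under 0.05. Rad51c rose most (log2 fold change 1.11) and Atm, the kinase of double-strand breaks, fell most (-0.69). Adjusted p-values throughout are from edgeR's quasi-likelihood test with Benjamini-Hochberg adjustment over all genes tested. The 51.1% called higher stand beside 31.5% of all genes tested, and the 20% called lower beside 29.9%. The median log2 fold change was 0.20 over the 45 genes and 0.00 over all genes. APTK medium moved 21 genes, 14 higher (31.1%, against 20.9% of all genes) and 7 lower (15.6%, against 22.5%), with a median of 0.12. These comparisons share the untreated libraries. In bulk RNA, fewer cells making a transcript and less transcript per cell cannot be told apart.

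Side by side, 10 genes were higher with each medium: Trp53bp1, Brca1, Brca2, Palb2, Bard1, Rad51c, Rad52, Exo1, Parp2 and Fanca. Atm, Atr, Nbn and Xrcc5 were lower with each. Rad50 alone was called in opposite directions, higher with APTKA and lower with APTK medium. A further 12 genes were called higher and 5 lower with APTKA medium alone, 4 were called higher and 2 lower with APTK medium alone, and 7 (Rnf168, Rad54l, Xrcc3, Xrcc4, Xrcc1, Fanci and Ercc2) with neither. The share of all genes with each of these patterns was not counted, and both comparisons use the same untreated libraries. A call in a single medium is no test of a difference, which the direct comparison of the media gives. APTKA medium set against APTK medium called 19 genes higher (42.2%, against 31.1% of all genes) and 5 lower (11.1%, against 31.8%). The split was 15 higher and 9 lower under upper quartile scaling, 19 and 9 with the groups compared alone, and 18 and 8 without APTKA III.

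**Figure D1:**
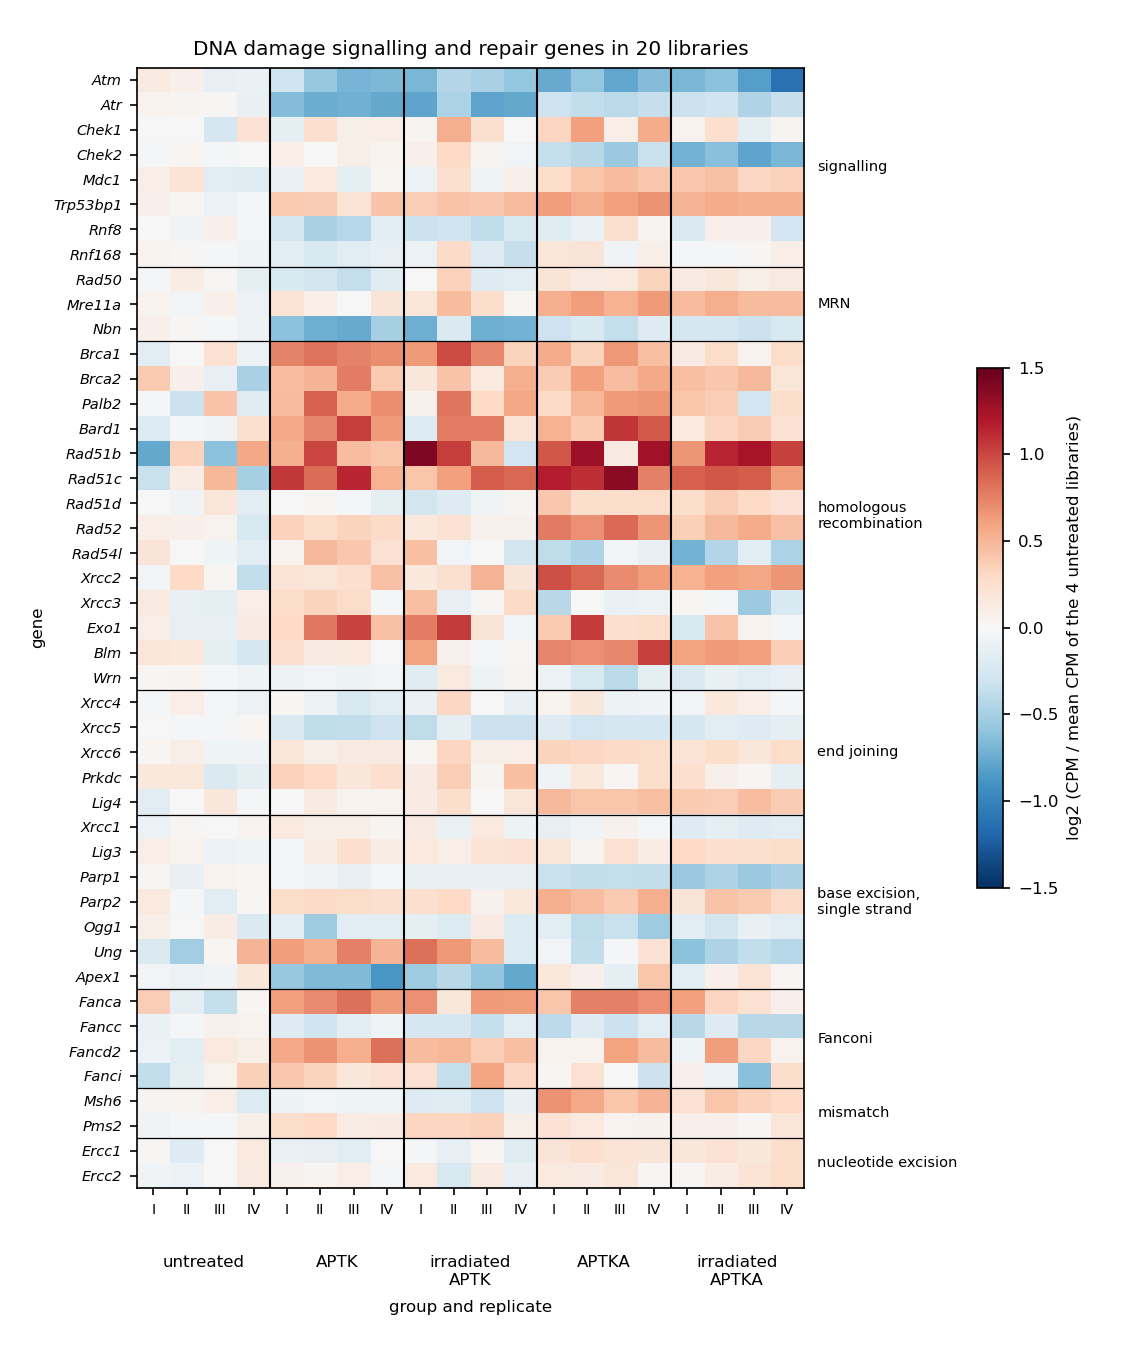
Each row is a gene, ordered by role, and each column a library, with the colour giving log2 of its CPM over the mean CPM of the 4 untreated libraries (the scale ends at -1.5 and 1.5). Atm, Atr and Nbn are blue in the medium groups, the recombination genes from Brca1 to Rad51c are mostly red there, and irradiated columns resemble the plain columns of the same medium.

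The kinase genes Atm and Atr were lower with each medium. Atm (ENSMUSG00000034218, chr9:53439149-53536740, minus strand, mm10) stood at 45.1, 43.4, 37.7 and 38.6 CPM in the untreated libraries I to IV, 33.5, 27.8, 25.4 and 25.9 with APTK medium, and 24.3, 27.5, 24 and 26.3 with APTKA medium. Every medium library lay below every untreated library. The log2 fold change was -0.55 ± 0.0947 (SE) with APTK medium (adjusted p = 3.7e-05) and -0.69 ± 0.0951 with APTKA medium (adjusted p = 5.89e-07), and the media did not differ by the test (-0.14, 95% interval -0.34 to 0.06, adjusted p = 0.205). Atr (chr9:95857597-95951781, plus strand), the kinase of replication stress, was at 51.1, 50.6, 50 and 45.8 CPM untreated, 31.4, 29.5, 30 and 29.1 with APTK medium, and 39.9, 38.3, 37.4 and 39 with APTKA medium. These 3 groups did not overlap. Atr was lower by -0.72 ± 0.0634 with APTK medium (adjusted p = 6.63e-10) and by -0.35 ± 0.0624 with APTKA medium (adjusted p = 1.94e-05), so that APTKA libraries held more of it than APTK libraries (0.37 ± 0.0637, adjusted p = 1.49e-05).

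The effector kinases went separate ways. Chek2 (chr5:110839979-110874145, plus strand), which ATM activates, was at 23.6, 24.3, 23.6 and 23.7 CPM untreated and at 25.4, 23.8, 25.3 and 24.6 with APTK medium, which overlapped (0.06 ± 0.0684, adjusted p = 0.5). With APTKA medium it was at 18.6, 17.9, 16.2 and 18.9 CPM, below every library of the other groups without irradiation (-0.41 ± 0.0696 against untreated, adjusted p = 1.12e-05, and -0.47 ± 0.0694 against APTK medium, adjusted p = 1.35e-06). Chek1, the kinase downstream of ATR, was at 3.68, 3.67, 3.09 and 4.29 CPM untreated, 3.34, 4.4, 3.91 and 3.95 with APTK medium, and 4.61, 5.64, 3.96 and 5.41 with APTKA medium. Its rise with APTKA medium (0.42 ± 0.14, adjusted p = 0.0117) overlapped the untreated range and was lost without APTKA II (0.34, adjusted p = 0.0534) or untreated III (0.34, adjusted p = 0.0528). Its difference from APTK medium (0.33, adjusted p = 0.0374) was lost without APTKA II or IV or without APTK I, III or IV (0.26 to 0.34, adjusted p 0.0571 to 0.135) and under upper quartile scaling (0.26, adjusted p = 0.102).

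The mediator genes Trp53bp1 and Mdc1 rose with APTKA medium. Trp53bp1 (chr2:121193281-121271407, minus strand), which encodes 53BP1 and favours end joining, was at 52.7, 50.9, 46.9 and 49.6 CPM untreated, 65.5, 65.3, 57.5 and 67.4 with APTK medium, and 77, 73.2, 76.7 and 79.7 with APTKA medium. The 3 groups were in that order without overlap, with log2 fold changes of 0.35 ± 0.0525 (adjusted p = 3.94e-06) and 0.62 ± 0.0523 (adjusted p = 6.28e-11) against untreated and 0.26 ± 0.0518 between media (adjusted p = 7.71e-05). Mdc1, the scaffold on phosphorylated histone H2AX, was called with APTKA medium (0.40 ± 0.097, adjusted p = 0.000759) and not with APTK medium (-0.01, adjusted p = 0.959). The ubiquitin ligase gene Rnf8 fell with APTK medium (-0.33 ± 0.12, adjusted p = 0.027). That call was lost without untreated III or APTK II or III (-0.30 to -0.28, adjusted p 0.0685 to 0.0905), under upper quartile scaling (adjusted p = 0.0519) and with no filter (adjusted p = 0.0987). Rnf168, the next ligase of that pathway, was not called against untreated with APTKA (0.11) or APTK medium (-0.17, adjusted p = 0.11, and 0.0157 with the groups compared alone) but was higher with APTKA than APTK medium (0.28 ± 0.0847, adjusted p = 0.00602). Of the 8 signalling genes, 6 were higher (75%, against 31.1% of all genes) and 1 lower (12.5%, against 31.8%) in that comparison of media. Rnf8 was among them (0.33) and lost its call without APTKA III or APTK II or III (0.25 to 0.30, adjusted p 0.0524 to 0.0823) and under upper quartile scaling (0.26, adjusted p = 0.0606).

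The subunits of the MRN complex did not move together. Mre11a (chr9:14784654-14837123, plus strand), its nuclease, stood at 27.7, 25.9, 28.2 and 25.2 CPM untreated, 30.8, 28.6, 26.8 and 30.7 with APTK medium, and 39.1, 41.2, 38.4 and 41.5 with APTKA medium. The APTKA libraries were above all libraries of the other 2 groups (0.58 ± 0.0714 against untreated, adjusted p = 6.01e-08). Nbn (chr4:15957925-15992589, plus strand), the subunit that binds ATM, was at 38.2, 36.4, 35.5 and 34.3 CPM untreated, 23.6, 21.7, 21.4 and 25.5 with APTK medium, and 29, 30.7, 28.1 and 31.6 with APTKA medium. It was lowest with APTK medium (-0.65 ± 0.0852, adjusted p = 5.99e-07) and between the other groups with APTKA medium (-0.27 ± 0.0837, adjusted p = 0.00582), without overlap.

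Rad50 (chr11:53649519-53707319, minus strand), the subunit that tethers DNA ends, was at 44.7, 48.8, 45.8 and 41 CPM untreated, 38.6, 37.2, 35.1 and 39.6 with APTK medium, and 51.7, 49.4, 49.8 and 56.7 with APTKA medium. The groups did not overlap, with APTK libraries below and APTKA libraries above the untreated ones. The call against untreated was weak with APTKA medium (0.20 ± 0.0825, adjusted p = 0.0339): it was lost without untreated I or IV or APTKA I or IV (0.16 to 0.21, adjusted p 0.054 to 0.119) and under upper quartile scaling (0.17, adjusted p = 0.0812). With APTK medium it was -0.26 ± 0.0837 (adjusted p = 0.0136), lost without untreated II (-0.22, adjusted p = 0.0502). All 3 subunits were higher with APTKA than with APTK medium: Rad50 by 0.46 ± 0.0831 (adjusted p = 2.46e-05), Mre11a by 0.45 ± 0.0709 (adjusted p = 3.01e-06) and Nbn by 0.37 ± 0.0856 (adjusted p = 0.000426).

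Of 14 homologous recombination, resection and helicase genes, 11 were higher (78.6%, against 31.5% of all genes) and 1 lower (Wrn) with APTKA medium. With APTK medium 7 were higher (50%, against 20.9%) and none lower (8 of the 14 had an unadjusted p under 0.05). Brca1 (chr11:101488764-101551955, minus strand), the tumour suppressor that starts resection and recombination, was at 3.72, 4.14, 4.88 and 3.92 CPM untreated, 6.99, 7.31, 6.95 and 6.75 with APTK medium, and 6.12, 5.26, 6.53 and 5.69 with APTKA medium. The groups did not overlap, and Brca1 was highest with APTK medium (0.75 ± 0.119, adjusted p = 1.03e-05) and intermediate with APTKA medium (0.50 ± 0.121, adjusted p = 0.000767). The direct difference between media was -0.25 ± 0.114 (adjusted p = 0.0583). It passed the threshold without APTKA III (-0.30, adjusted p = 0.0403), under upper quartile scaling (-0.32, adjusted p = 0.0157) and with the groups compared alone (adjusted p = 0.0286).

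Its partners had like values in both media. Bard1, the obligate partner of BRCA1, had log2 fold changes of 0.76 with APTK and 0.74 with APTKA medium, Brca2, a mediator of recombination, 0.55 and 0.51, and Palb2, which links BRCA1 to BRCA2, 0.66 and 0.51. The intervals of their APTKA to APTK differences were -0.41 to 0.37, -0.30 to 0.24 and -0.50 to 0.22. Palb2 was lost with APTKA medium without untreated II or IV or APTKA IV (0.42 to 0.47, adjusted p 0.0522 to 0.0698). Exo1, a nuclease of resection, was at 2.22, 3.5, 2 and 2.04 CPM with APTKA medium, and its rise against untreated (0.54 ± 0.225, adjusted p = 0.04) fell to 0.31 without APTKA II (adjusted p = 0.252). It was also lost without any single untreated library (adjusted p 0.05 to 0.0868) and under upper quartile scaling (adjusted p = 0.054). With APTK medium Exo1 was at 0.66 (adjusted p = 0.0179), and at 0.52 without APTK III (adjusted p = 0.0848).

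Rad51c (chr11:87376645-87404954, minus strand), a gene of homologous recombination, had the largest rise with each medium. It was at 0.92, 1.25, 1.64 and 0.822 CPM untreated, 2.42, 2.07, 2.56 and 1.66 with APTK medium, and 2.62, 2.49, 2.96 and 1.96 with APTKA medium. All medium libraries lay above all untreated ones, on 22 to 42 counts per untreated library and 39 to 78 with plain medium, and the log2 fold changes were 0.92 ± 0.201 (adjusted p = 0.000522) and 1.11 ± 0.197 (adjusted p = 1.83e-05). Other recombination genes were called with APTKA medium and not with APTK medium: Xrcc2 at 0.80 with APTKA and 0.28 with APTK medium and Rad51d at 0.30 and -0.04, and each was higher with APTKA than APTK medium (0.53, adjusted p = 0.000277, and 0.34, adjusted p = 0.000248). Without untreated II, Xrcc2 was also called with APTK medium (0.39, adjusted p = 0.0162), as under upper quartile scaling (0.32, adjusted p = 0.038). Xrcc3 and the motor Rad54l were not called against untreated but were lower with APTKA than APTK medium (-0.37 ± 0.136, adjusted p = 0.0205, and -0.56 ± 0.167, adjusted p = 0.00516). The Xrcc3 call was lost without APTKA I (-0.28, adjusted p = 0.0935) or APTK II (-0.33, adjusted p = 0.0595).

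Blm, the helicase that dissolves crossed DNA strands, was at 3.72, 3.67, 2.97 and 2.76 CPM untreated, 3.92, 3.56, 3.62 and 3.27 with APTK medium, and 5.45, 5.26, 5.4 and 6.67 with APTKA medium. APTKA libraries were above the rest (0.80 ± 0.135 against untreated, adjusted p = 9.86e-06, and 0.66 ± 0.133 against APTK medium, adjusted p = 9.45e-05). Rad52, an annealing factor, rose with each medium, from a mean of 16.6 to 20.5 CPM with APTK medium (0.31, adjusted p = 0.0014) and to 27.7 CPM with APTKA medium (0.74, adjusted p = 1.2e-09). Wrn, a related helicase, was 0.21 lower on the log2 scale with APTKA medium (-0.21 ± 0.0677, adjusted p = 0.00789).

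Of the end-joining genes, Ku subunits split. Xrcc5 (chr1:72307421-72394952, plus strand), Ku80, was at 44.9, 44.1, 44.2 and 45.4 CPM untreated, 38.3, 34.2, 34.5 and 35.9 with APTK medium, and 39.1, 36.7, 37.5 and 37.6 with APTKA medium, lower in every medium library (-0.32 ± 0.0556, adjusted p = 3.24e-05, and -0.24 ± 0.0554, adjusted p = 0.000436). Xrcc6, Ku70, was higher with APTKA medium (0.30 ± 0.0604, adjusted p = 8.76e-05) and at 0.14 with APTK medium (adjusted p = 0.0721), which passed under upper quartile scaling (0.17, adjusted p = 0.0222) and with the groups compared alone (adjusted p = 0.0421). Its difference between media (0.17, adjusted p = 0.0171) was 0.10 under upper quartile scaling (adjusted p = 0.165). Lig4, the ligase of end joining, was at 13.8, 15.4, 17.3 and 15.1 CPM untreated, 15.4, 16.9, 16 and 16 with APTK medium, and 21.6, 20.6, 20.5 and 21 with APTKA medium, above all others (0.44 ± 0.0715, adjusted p = 4.86e-06).

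Prkdc, the catalytic kinase that Ku recruits, was at 25.9, 25.8, 20 and 21 CPM untreated, 29.5, 28.4, 26 and 27.6 with APTK medium, and 22.4, 25.9, 23.4 and 27.8 with APTKA medium. Its rise with APTK medium (0.27 ± 0.0996, adjusted p = 0.0316) was lost without untreated III or IV or APTK I, II or IV (0.20 to 0.27, adjusted p 0.0518 to 0.126). Xrcc4, the partner of LIG4, was not called with APTKA (0.03) or APTK medium (-0.11).

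Base excision and single-strand break genes moved in both directions. Apex1 (chr14:50924968-50927139, plus strand), the endonuclease that cuts at lost bases, was at 11, 10.7, 10.9 and 12.8 CPM untreated, 7.64, 7.19, 7.17 and 6.2 with APTK medium, and 12.7, 12, 10.3 and 15.2 with APTKA medium. APTK libraries were below all others (-0.69 ± 0.111 against untreated, adjusted p = 1.3e-05), while APTKA libraries overlapped the untreated ones (0.14, adjusted p = 0.251), and the difference between media was 0.83 ± 0.11 (adjusted p = 2.42e-07), the largest rise among the 45 genes. Of its exon sequence 61.7% is shared with Pip4p1 on the opposite strand, so without a stated strand setting reads of these genes cannot be told apart.

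Parp1 (chr1:180568924-180601254, plus strand) was at 73.7, 66.6, 74.6 and 73.9 CPM untreated, 71.5, 69.4, 66.3 and 70.7 with APTK medium, and 57.3, 55.8, 56.3 and 56.1 with APTKA medium, below every other library without irradiation (-0.36 ± 0.0473 against untreated, adjusted p = 2.3e-07). Parp2, its relative, went the other way, at 20.8, 18.6, 16.7 and 19 CPM untreated, 22.8, 22.9, 22.7 and 22.1 with APTK medium, and 27.1, 25.8, 24.7 and 27.5 with APTKA medium. Its groups did not overlap (0.27 ± 0.072, adjusted p = 0.00312, and 0.49 ± 0.0713, adjusted p = 1.17e-06, against untreated). Its difference between media (0.22, adjusted p = 0.00941) was 0.14 under upper quartile scaling (adjusted p = 0.0737).

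The uracil glycosylase Ung rose with APTK medium (0.60 ± 0.2, adjusted p = 0.0161) and was lower with APTKA than APTK medium (-0.66 ± 0.2, adjusted p = 0.00549). Its rise was lost without untreated I (0.53, adjusted p = 0.054) or II (0.47, adjusted p = 0.071). Ogg1, which removes oxidised guanine, was lower with APTKA medium (-0.34 ± 0.104, adjusted p = 0.00584). With APTK medium Ogg1 was at -0.24 (adjusted p = 0.0619), and was called without untreated IV (-0.31, adjusted p = 0.0222), under the size factors of DESeq2 and in DESeq2 (-0.25, adjusted p 0.0495 and 0.0467). Lig3, a ligase of single-strand breaks, was at 0.14 with APTKA medium (adjusted p = 0.0468), a call lost without untreated III or IV or APTKA I, III or IV (adjusted p 0.0551 to 0.144) and under the upper quartile and DESeq2 scalings, with no filter and in DESeq2 (adjusted p 0.0535 to 0.125). With APTK medium Lig3 was at 0.12 (adjusted p = 0.119), called without APTK I (0.16, adjusted p = 0.0417) and under upper quartile scaling (0.16, adjusted p = 0.0394). Xrcc1, the scaffold of that route, was not called with APTKA (-0.03) or APTK medium (0.09).

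Among crosslink repair genes, Fanca, of the Fanconi core complex, was at 3.16, 2.24, 1.91 and 2.5 CPM untreated, 3.76, 4.02, 4.35 and 3.82 with APTK medium, and 3.26, 4.14, 4.13 and 3.96 with APTKA medium. Medium libraries lay above untreated ones (0.70 ± 0.151, adjusted p = 0.000447, and 0.65 ± 0.151, adjusted p = 0.000492). Fancd2, which the core complex marks with ubiquitin, rose with APTK medium (0.65 ± 0.165, adjusted p = 0.00216) and was at 0.30 with APTKA medium (adjusted p = 0.124). Between APTKA and APTK medium Fancd2 was not called (-0.35, adjusted p = 0.0599). It passed the threshold there without APTKA III or IV (-0.45 and -0.41, adjusted p 0.0236 and 0.0467) and under upper quartile scaling (-0.42, adjusted p = 0.0259). Its partner Fanci was not called with APTK (0.28) or APTKA medium (-0.01), and Fancc fell with APTKA medium (-0.26 ± 0.0821, adjusted p = 0.00684).

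Msh6 (chr17:87975062-87990892, plus strand), which acts in the recognition of base mismatches, was at 44.7, 45.1, 46.6 and 37.7 CPM untreated, 41.2, 42.3, 41.5 and 41.6 with APTK medium, and 69.4, 64.7, 58.3 and 62.1 with APTKA medium. APTKA libraries were above all others (0.55 ± 0.0643 against untreated, adjusted p = 2.74e-08, and 0.61 ± 0.0643 against APTK medium, adjusted p = 4.01e-09). Pms2, of the mismatch endonuclease, was at 11.9, 12.2, 12.2 and 13.1 CPM untreated, 14.8, 15.2, 13.3 and 13.5 with APTK medium, and 14.4, 13.7, 12.8 and 12.9 with APTKA medium. Its call with APTK medium (0.20 ± 0.0771, adjusted p = 0.0334) was lost without untreated I, II or III or APTK I or II (0.17 to 0.20, adjusted p 0.0654 to 0.112) and with no filter (adjusted p = 0.0826).

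Ercc1, part of a nuclease of nucleotide excision, was at 25.9, 22.5, 25.7 and 28.4 CPM untreated, 23.9, 23.6, 23 and 25.5 with APTK medium, and 29.4, 30.6, 29.5 and 29.4 with APTKA medium. APTKA libraries were above all others (0.21 ± 0.0662 against untreated, adjusted p = 0.00689). Ercc2, a helicase of TFIIH, was not called with APTKA (0.12) or APTK medium (0.05).

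**Figure D2:**
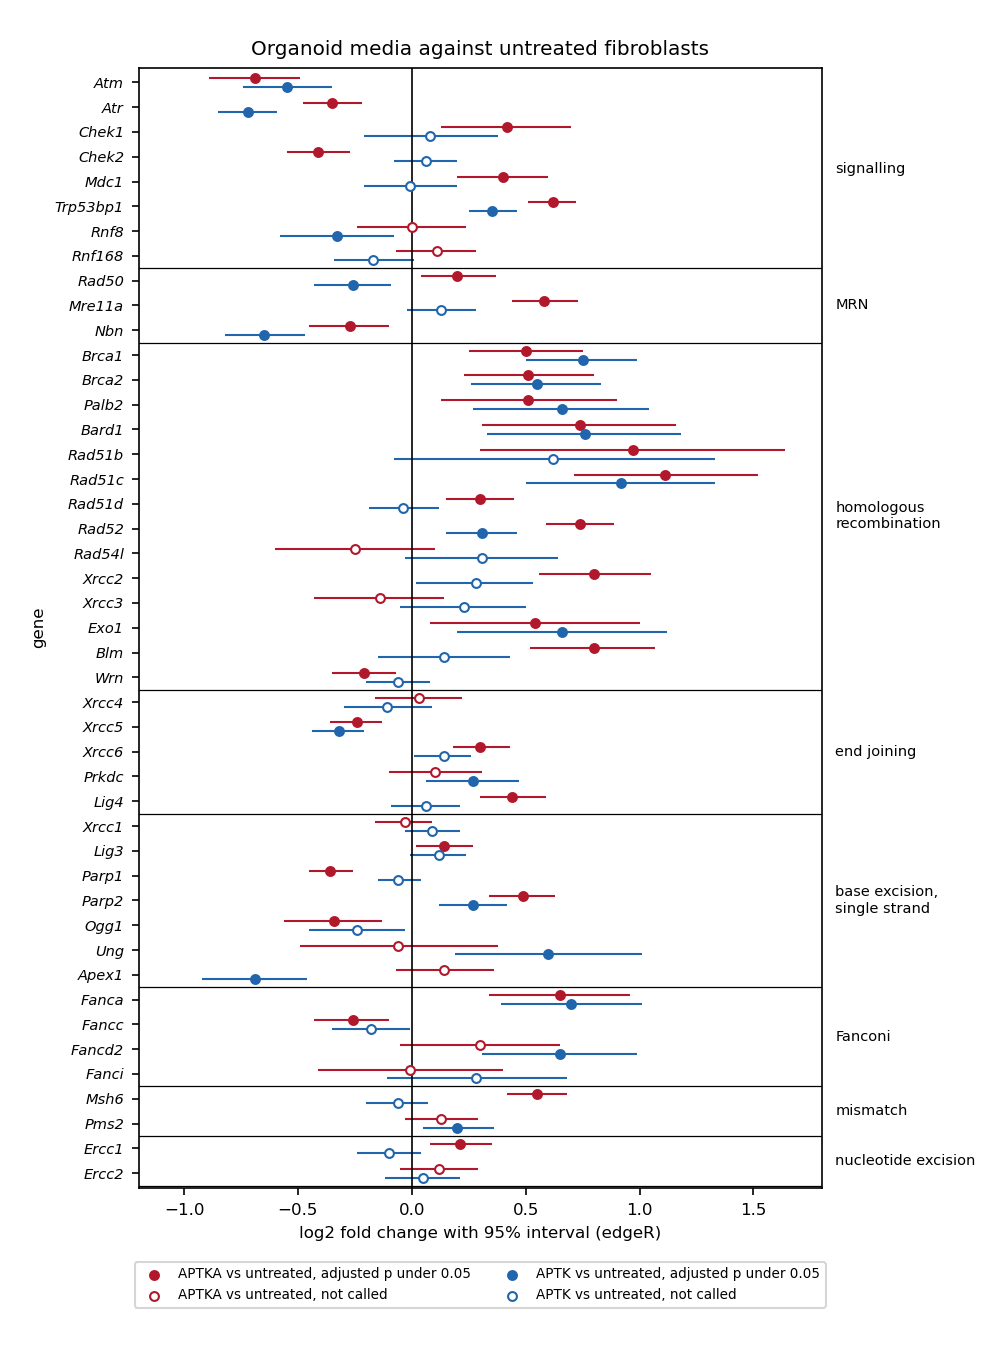
Log2 fold changes against untreated fibroblasts (horizontal axis) with 95% intervals for the 45 genes, in red for APTKA and in blue for APTK medium, with filled points for an adjusted p under 0.05. Rad51c lies farthest right in both colours (1.11 and 0.92), and Mre11a, Msh6 and Blm have red points well to the right of blue ones.

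**Figure D3:**
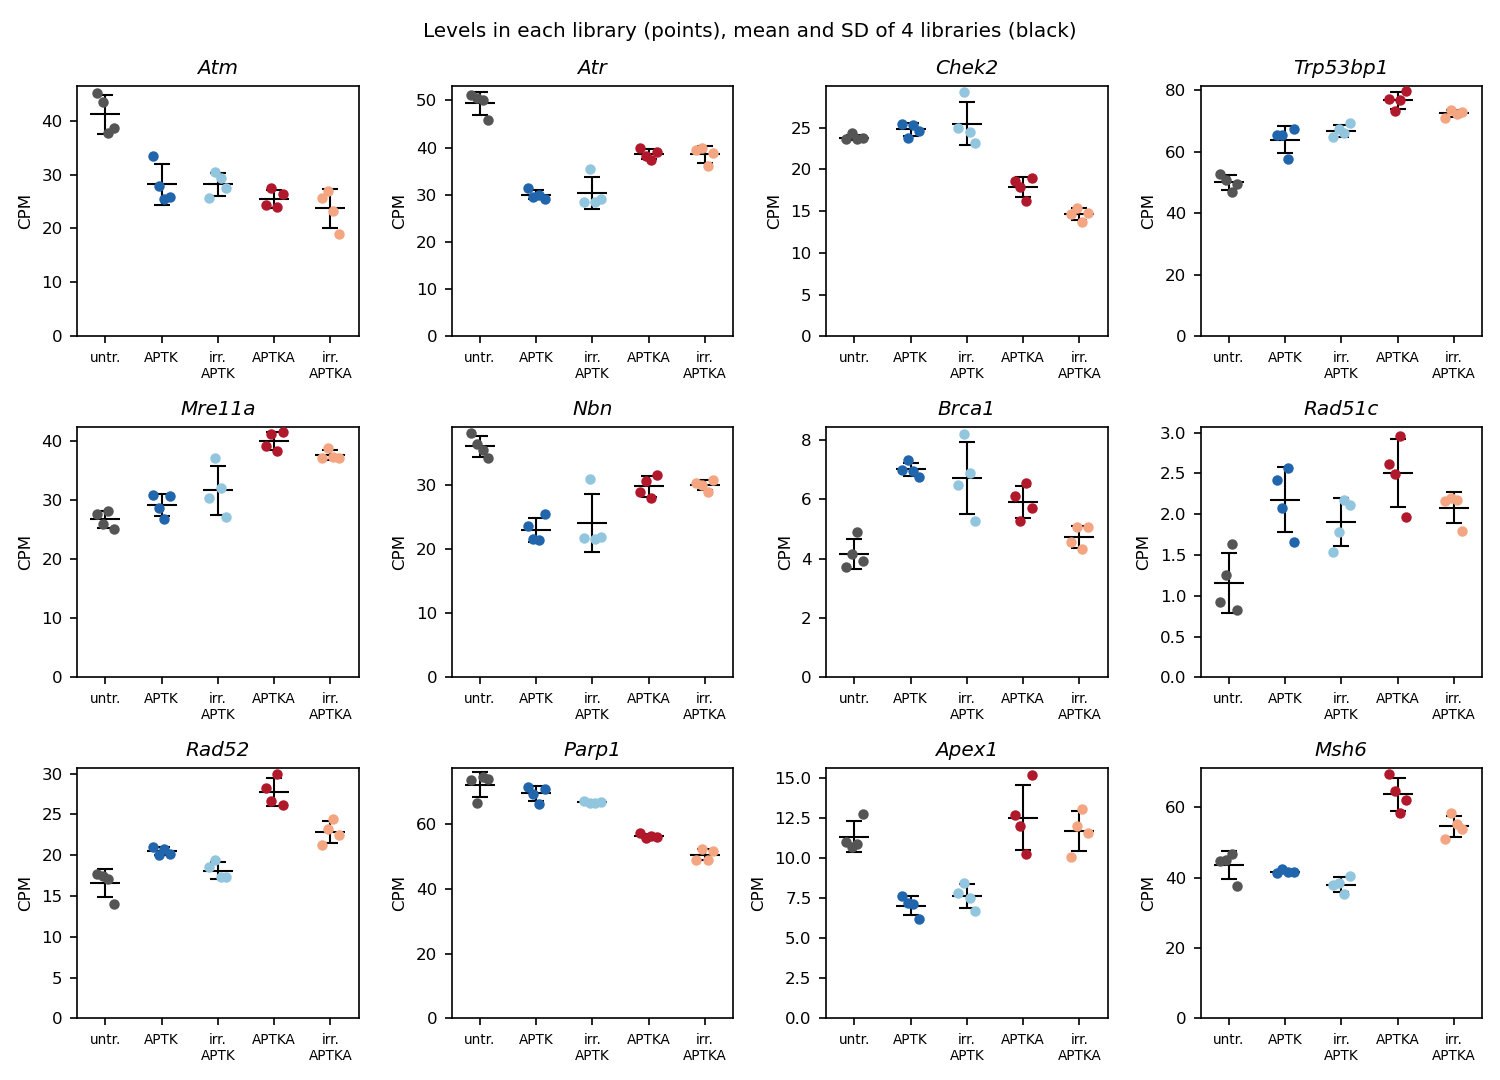
CPM of 12 genes in each of 20 libraries (points) with the mean and SD of each group of 4 (black), on axes that start at 0. Chek2 and Parp1 are lowest in the APTKA groups, and Apex1, Atr and Nbn in the APTK groups.

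A list of 12 of the 45 genes known as S-phase or E2F-regulated genes (Chek1, Brca1, Brca2, Bard1, Rad54l, Exo1, Blm, Fanca, Fancd2, Fanci, Msh6 and Ung) was described apart. Of these, 8 were higher with APTKA medium (66.7%, against 31.5% of all genes) and 7 with APTK medium (58.3%, against 20.9%), and none was lower (unadjusted p under 0.05 for 8 and 7), with medians of 0.51 and 0.57. The other 33 genes had 15 higher and 9 lower with APTKA medium (45.5% and 27.3%, against 31.5% and 29.9% of all genes, median 0.13). With APTK medium they had 7 higher and 7 lower (21.2% each, near the 20.9% and 22.5% of all genes, median 0.05). The 12 genes summed to 65.7 to 74.4 CPM untreated, 78.6 to 83.5 with APTK medium and 96.8 to 105 with APTKA medium, most of it Msh6. A list of 20 replication and proliferation genes, none among the 45, summed to 230 to 264 CPM untreated, 283 to 294 with APTK medium and 330 to 356 with APTKA medium, and its part in the results was not tested. In that list 11 genes were higher (55%) and 1 lower (5%) with APTKA medium, and 11 higher (55%) and 3 lower (15%) with APTK medium, against the shares of all genes just given. Mki67, a marker of cycling cells, was at 0.35 with APTKA (adjusted p = 0.0381) and 0.26 with APTK medium (adjusted p = 0.148), and Pcna, the replication clamp, was lower with each (-0.28 and -0.32).

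E2F factors bind short GC-rich cores. The promoters of repair genes were searched on both strands for the core TTCCCGC, for the variant that reads TTGGCGC, for another that reads TTGCCGC, and for the last one, which reads TTCGCGC. RefSeq windows (GRCm38.p6) of 300 bases, 250 before the start and 50 after it, matched 37 of the 45 genes by symbol, and 21 of these (56.8%) held a core in a window, against 19.2% of 10642 genes tested with a window and 10.9% of all 27025 genes with a window. The share was 7 of 10 among S-phase members and 14 of 27 among the others. It was 12 of 19 among genes higher with APTKA medium, 2 of 7 among genes lower and 7 of 11 among those not called. CCAAT, on either strand, stood in 56.8% of the members' promoters and in 42.6% of those of genes tested. A match is a description of the letters and not a bound site.

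Shown are the windows, 5′ to 3′ on the gene's strand with the core in capitals, of 3 genes. They had the largest changes with APTKA medium among the leading genes of each role that hold a core: Rad51c (chr11:87404457-87404756, minus strand, 1 of 2 windows), Atm (chr9:53536622-53536921, minus strand) and Msh6 (chr17:87974800-87975099, plus strand). The other window of Rad51c, not shown, holds 2 cores. The core shown for Rad51c and for Msh6 reads on the gene's strand, that of Atm on the other. In these windows they begin 12 (Rad51c), 16 (Msh6) and 15 (Atm) bases after the start.
Rad51c: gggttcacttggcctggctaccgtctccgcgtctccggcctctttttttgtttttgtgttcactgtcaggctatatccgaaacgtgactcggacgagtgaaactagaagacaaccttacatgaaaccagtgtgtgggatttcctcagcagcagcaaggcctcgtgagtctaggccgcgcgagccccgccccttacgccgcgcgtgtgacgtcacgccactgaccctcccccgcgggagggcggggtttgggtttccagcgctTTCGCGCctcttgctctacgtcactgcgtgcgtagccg
Atm: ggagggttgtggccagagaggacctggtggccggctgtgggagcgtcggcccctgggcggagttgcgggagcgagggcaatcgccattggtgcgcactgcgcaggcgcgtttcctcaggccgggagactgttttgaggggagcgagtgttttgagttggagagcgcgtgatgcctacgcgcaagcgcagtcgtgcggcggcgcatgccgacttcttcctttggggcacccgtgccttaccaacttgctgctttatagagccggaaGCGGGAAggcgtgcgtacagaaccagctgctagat
Msh6: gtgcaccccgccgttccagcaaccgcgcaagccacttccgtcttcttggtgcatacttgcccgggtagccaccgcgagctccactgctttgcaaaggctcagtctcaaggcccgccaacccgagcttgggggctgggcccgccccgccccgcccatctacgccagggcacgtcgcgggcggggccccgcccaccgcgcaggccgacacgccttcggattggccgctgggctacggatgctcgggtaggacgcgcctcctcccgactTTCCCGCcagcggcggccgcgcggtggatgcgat
Rad51c and Msh6 rose with APTKA medium (1.11 and 0.55), whereas Atm, with a core at nearly the same distance, fell (-0.69).

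Irradiation moved few of the 45 genes. In irradiated against plain APTKA medium none was called, higher or lower, beside 0.452% and 0.277% of all genes, and 12 had an unadjusted p under 0.05, of which 11 were lower. In irradiated against plain APTK medium none was called, beside 0.547% higher and 0.837% lower of all genes, with 2 at an unadjusted p under 0.05. For counts at an unadjusted p, here and elsewhere, the share of all genes is not given, so they cannot be set against it. DESeq2 called 4 of the 45 genes in APTKA medium, all lower, beside 196 higher and 111 lower among all genes. In APTK medium it called none of the 45, beside 209 higher and 230 lower among all genes. Every one of the 45 intervals excluded a change of 2-fold in each medium, and 37 and 41 of them a change of 1.5-fold, with median half-widths of 0.19 and 0.20 on the log2 scale. With 4 libraries per group, changes smaller than a gene's half-width could not be told from no change. Larger ones could still miss the adjusted threshold.

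Chek2 had the smallest p in APTKA medium. It was at 18.6, 17.9, 16.2 and 18.9 CPM in plain and 14.6, 15.4, 13.7 and 14.8 in irradiated APTKA medium, without overlap (-0.29 ± 0.0712, adjusted p = 0.052). It was at 25, 29.2, 24.5 and 23.2 CPM in irradiated APTK medium, which overlapped plain APTK medium. Chek2 was called in APTKA medium under upper quartile scaling (-0.31, adjusted p = 0.0384), in DESeq2 (-0.28, adjusted p = 0.0138) and with the groups compared alone (-0.30, adjusted p = 0.0185). Rad52 was called under the same settings: it was at 28.3, 26.6, 29.9 and 26.1 CPM in plain and 21.2, 23.2, 24.4 and 22.5 in irradiated APTKA medium (-0.28 ± 0.0713, adjusted p = 0.0678, and 0.0109 to 0.0467 in those settings). Parp1 (-0.16, adjusted p = 0.121) and Msh6 (-0.22, adjusted p = 0.102) were called in DESeq2 (adjusted p 0.0452 and 0.0483) and with the groups compared alone (adjusted p 0.0352 and 0.0161).

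Over both media together irradiation called none higher and 2 lower (4.44%), beside 1.49% and 1.26% of all genes. Rad52 was lower by -0.23 ± 0.0516 (adjusted p = 0.0158), with irradiated APTK libraries at 18.5, 19.4, 17.3 and 17.3 CPM, all below the plain ones at 21, 20, 20.8 and 20.2. Msh6 was lower by -0.18 ± 0.0458 (adjusted p = 0.0335), at 50.9, 58.2, 55.2 and 53.7 CPM in irradiated APTKA and 38, 38.5, 35.2 and 40.3 in irradiated APTK medium, below the plain libraries of each medium. The Msh6 call was lost without APTKA I, II or IV, APTK II, III or IV, irradiated APTKA I, III or IV, or irradiated APTK I or III (-0.18 to -0.15, adjusted p 0.0533 to 0.0816). Chek2 was called without irradiated APTK II (-0.16, adjusted p = 0.0353), and Parp1 under upper quartile scaling and in DESeq2 (-0.13 and -0.11, adjusted p 0.0325 and 0.0314).

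The S-phase list stood lower throughout in irradiated APTKA medium: all 12 had a negative log2 fold change (median -0.27, 6 with an unadjusted p under 0.05). Of the other 33 genes 25 were negative as well (median -0.07), and the median over all genes was 0.00. In irradiated APTK medium 10 of the 12 were negative (median -0.15), none with an unadjusted p under 0.05, and 11 of the other 33 (median 0.03). The share of all genes with a negative value was not counted. None of the 12 was called in either medium in the edgeR fit of all libraries. Msh6 was called in APTKA medium in DESeq2 (adjusted p = 0.0483) and in edgeR with the groups compared alone (adjusted p = 0.0161). Their sum in irradiated APTKA medium was 82.8 to 92.4 CPM, against 96.8 to 105 in plain APTKA medium, and 71.4 to 77.9 against 78.6 to 83.5 CPM in APTK medium. The replication and proliferation list was also lower in irradiated APTKA medium, at 270 to 278 CPM against 330 to 356. Of its 20 genes 3 were called lower there (15%, against 0.277% of all genes), and its part was not tested. In APTK medium that list was at 239 to 318 CPM against 283 to 294, with none called (0 of 20 with an unadjusted p under 0.05 in edgeR).

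In irradiated APTK medium library II set several values. Atr was at 35.5 CPM there and at 28.5, 28.5 and 29.1 in libraries I, III and IV, and Nbn at 31 against 21.8, 21.7 and 22 CPM. Rad50 was at 45.1, 57.2, 39.4 and 40 CPM, and its difference from plain APTK medium (0.26 ± 0.0843, adjusted p = 0.113) was called without irradiated APTK IV (0.32, adjusted p = 0.0201) and with no filter (0.25, adjusted p = 0.014). Rnf168 was at 48.2 CPM in library II and at 31.2 to 37.2 in the others.

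**Figure D4:**
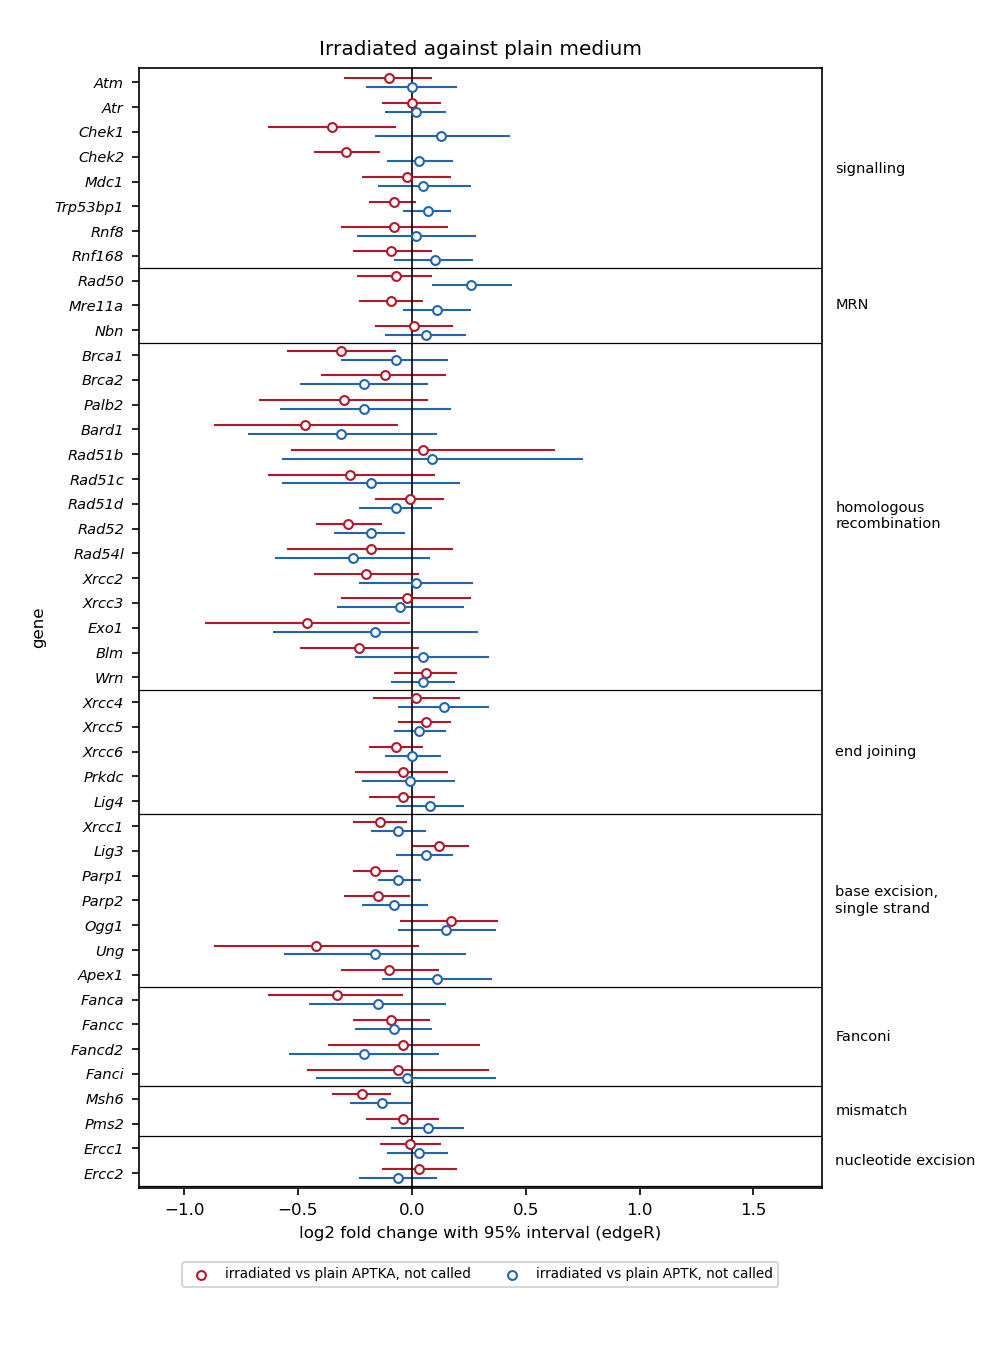
Log2 fold changes of irradiated against plain medium (horizontal axis, same scale as the plot of the media) with 95% intervals, in red for APTKA and blue for APTK medium. No point is filled, since none of the 45 genes passed the threshold, and Chek2 (-0.29), Rad52 (-0.28) and Msh6 (-0.22) have red intervals to the left of 0.

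Set against each other, the irradiation effects with APTKA and APTK medium differed for none of the 45 genes by edgeR, higher or lower, beside 0.121% and 0.0607% of all genes. An unadjusted p under 0.05 was reached by 3, all more negative in APTKA medium: Chek2 (-0.32 ± 0.099, adjusted p = 0.215), Rad50 (-0.34, adjusted p = 0.305) and Chek1 (-0.48, adjusted p = 0.434). Chek2 was called without irradiated APTK IV (-0.37, adjusted p = 0.049), and DESeq2 called none. Of the intervals of these differences, 34 of 45 excluded 1.5-fold.

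Irradiated APTKA against irradiated APTK medium called 12 genes higher (26.7%, against 30.1% of all genes) and 9 lower (20%, against 31.2%). The split was 10 higher and 11 lower under upper quartile scaling, 14 and 5 with no filter, and 18 and 8 without irradiated APTK II. Of the 24 genes called between plain media 17 were called in the same direction here and none in the opposite one, 7 were called between plain media alone and 4 between irradiated media alone. The like shares of all genes were not counted. Chek2 (-0.79 ± 0.0707, adjusted p = 2.11e-10), Ung (-0.92 ± 0.215, adjusted p = 0.000576) and Parp1 (-0.40, adjusted p = 3.7e-08) were lower, and Apex1 (0.62, adjusted p = 2.23e-05), Msh6 (0.52, adjusted p = 9.97e-08) and Rad51d (0.40, adjusted p = 4.27e-05) higher. Rad50 was at 0.13 (adjusted p = 0.192), and at 0.27 without irradiated APTK II (adjusted p = 0.000485). Without that library Rnf168 (0.25), Xrcc5 (0.17), Xrcc6 (0.18), Parp2 (0.19), Trp53bp1 (0.14) and Fanci (-0.43) were called as well (adjusted p 0.00111 to 0.0477), and Atm (-0.20) and Pms2 (-0.15) were not (adjusted p 0.118 and 0.113). Further calls lost without 1 library were those of Atm (irradiated APTKA III or IV, or irradiated APTK III), Rad54l (I of either irradiated group), Xrcc2 (irradiated APTKA II or IV, or irradiated APTK I or IV), Xrcc3 (irradiated APTKA III or IV, or irradiated APTK I or IV), Blm (irradiated APTK III or IV) and Pms2 (irradiated APTKA I, II or III, or irradiated APTK I or III), at adjusted p 0.0515 to 0.152. Under upper quartile scaling Xrcc2 and Blm lost their calls (adjusted p 0.0872 and 0.0537), with no filter Rad54l, Xrcc3, Xrcc1 and Pms2 did (adjusted p 0.0569 to 0.264), and with the groups compared alone Xrcc3 and Pms2 did (adjusted p 0.0729 and 0.0747). Calls were gained as well. Trp53bp1 was called without irradiated APTK IV, under the size factors of DESeq2, in DESeq2 and with no filter (adjusted p 0.0313 to 0.0465). Rad50 was called with no filter (adjusted p = 0.0401). Rnf8, Exo1, Wrn, Prkdc and Ercc2 were called without 1 library other than irradiated APTK II (adjusted p 0.0209 to 0.0482). Under upper quartile scaling Wrn and Prkdc were called (adjusted p 0.00807 and 0.0321).

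Other genes of these pathways were described from 8 lists with 115 names, of which 111 were tested. With APTKA medium 50 of them were higher (45%, against 31.5% of all genes) and 17 lower (15.3%, against 29.9%). With APTK medium 29 were higher (26.1%, against 20.9%) and 17 lower (15.3%, against 22.5%). Between APTKA and APTK medium 45 were higher (40.5%, against 31.1%) and 22 lower (19.8%, against 31.8%). Irradiation called none of them in APTKA medium in edgeR (12 had an unadjusted p under 0.05) and 1 lower in APTK medium (0.901%, near the 0.837% of all genes). Nucleotide excision genes were higher with APTKA medium in 10 of 17 (58.8%) and lower in 1 (5.88%), such as Rad23b, a damage recognition factor (0.76, adjusted p = 3.14e-13), and Ercc5, an endonuclease (0.60, adjusted p = 3.97e-09), which fell with APTK medium (-0.42, adjusted p = 5.11e-06). Other Fanconi genes were higher in 3 of 13 (23.1%) and lower in 5 (38.5%) with APTKA medium, Fancl, the ubiquitin ligase of the core complex, by -0.81 (adjusted p = 6.03e-07). Rpa3, of the single-strand binding complex, was lower with APTKA medium (-0.60, adjusted p = 0.000556) and higher with APTK medium (0.44, adjusted p = 0.00725). Polk, a translesion polymerase, went the opposite way (0.69, adjusted p = 1.25e-07, and -0.44, adjusted p = 0.000173).

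Genes known as p53 targets were described as a further list. Whether their levels follow damage signalling was not tested. Of 20, 9 were higher (45%, against 31.5% of all genes) and 6 lower (30%, near the 29.9% of all genes) with APTKA medium. With APTK medium 1 was higher (5%, against 20.9%) and 16 lower (80%, against 22.5%). Cdkn1a, a cell cycle inhibitor, was at 177 ± 17.6 CPM untreated, 130 ± 11.3 with APTK and 273 ± 11.3 with APTKA medium, and Mdm2, the ligase of p53, at 288 ± 25.2, 201 ± 6.72 and 515 ± 44.9 CPM (SD, n = 4). In the irradiated groups they were at 126 ± 9.97 and 275 ± 14.6 CPM (Cdkn1a) and at 201 ± 20.4 and 466 ± 14.6 CPM (Mdm2) with APTK and APTKA medium, and neither was called between irradiated and plain medium (Cdkn1a adjusted p = 0.828 and 0.971, Mdm2 adjusted p = 0.996 and 0.37). Among all 20 targets, irradiation called none in APTKA medium and 1 lower in APTK medium (5%, against 0.837% of all genes). Over both media 1 was called lower (5%, against 1.26%). The difference of irradiation effects was called for 1 target, as higher (5%, against 0.121%). Trp53 itself was higher with APTKA medium (0.53, adjusted p = 0.000224) and lower with APTK medium (-0.35, adjusted p = 0.0173).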

How the data were processed

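The authors deposited whole-number read counts per gene for each of 20 libraries. Per the submitters' processing notes, the tools were bcl2fastq 2.20.0.422, STAR 2.5.2a and featureCounts 1.5.0-p1 with the mm10 build. For the annotation release, the strand setting and multimapping reads, the choice is not given in the sources used here. Identifiers were matched to GENCODE vM21 symbols (47310 of 47729). Of the 45 genes, 22 share exon sequence with another gene, 19 of them on the opposite strand, including Apex1, Ercc2, Lig3, Fanci and Trp53bp1.

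The deposited counts went into edgeR 4.0.16 (R 4.3.3), whose quasi-likelihood test was run with TMM scaling, the default filter by group, robust dispersions and 1 fit of 5 group means over all libraries (15 residual degrees of freedom). Log2 fold changes carry a standard error (absolute value over the square root of F) and an interval of 95%. Adjusted p-values are Benjamini-Hochberg over 14820 genes, called under 0.05. The effect over both media is the mean of both irradiation effects. CPM use TMM-scaled totals. Replicates of a group differed by more than sampling noise in every pair (chi-square over its degrees of freedom 4.8 to 88.4). Alternatives were other scalings, no filter, DESeq2 1.42.0, the groups compared alone, a replicate block, and leaving out each library.

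The genes, lists and tests were chosen with earlier results of these data known. Values in every library are given for 8 set genes and for the most changed gene of each role in each of the 3 comparisons without irradiation. Other genes named with values were partly chosen after these were seen. Figures were drawn with matplotlib.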

Additional observations from a re-analysis of the deposited data

Results flagged for a closer look

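Of 225 groups of 4 values (45 genes in 5 groups), 18 held a library that stood apart from the other 3 by Dixon's gap at the 95% level, where chance gives about 1 in 20. Irradiated APTK II held 3 of them: Atr at 35.5 CPM against 28.5 to 29.1, Nbn at 31 against 21.7 to 22, and Fanca lowest at 2.75 against 3.79 to 3.96. Other irradiated APTK libraries stood apart for Blm, highest in I at 5 CPM against 3.23 to 3.44, and Pms2, lowest in IV at 13.1 against 15.5 to 15.7. In irradiated APTKA medium, library II was highest for Mre11a at 38.9 CPM (37.1 to 37.3 in the others) and Fancc at 10.9 (9.29 to 9.35), and library IV lowest for Rad51c at 1.79 (2.16 to 2.2) and Blm at 4.23 (4.97 to 5.11).

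In plain APTKA medium, library I was highest for Rad51d at 28.6 CPM (25.9 to 26.1), library II for Exo1 at 3.5 (2 to 2.22) and Ercc1 at 30.6 (29.4 to 29.5), and library IV for Blm at 6.67 (5.26 to 5.45). In plain APTK medium, library II was lowest for Ogg1 at 6.85 CPM (8.83 to 8.87). Among untreated libraries, II was highest for Chek2 at 24.3 CPM (23.6 to 23.7) and lowest for Parp1 at 66.6 (73.7 to 74.6), and IV was lowest for Rad52 at 14 (17.1 to 17.7) and highest for Apex1 at 12.8 (10.7 to 11).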

How the results depend on the processing

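Between media and untreated fibroblasts the total count of the 45 genes called stayed within 1.5 times under every alternative run, at 28 to 31 (APTKA, 32 with all libraries), 18 to 21 (APTK, 21) and 22 to 26 (APTKA against APTK, 24) without any 1 library, and 18 to 26 (21) between irradiated media. Without any 1 library, 27 of the 32, 15 of the 21, 21 of the 24 and 15 of the 21 calls held. No log2 fold change of a called gene reversed. In irradiated against plain APTKA medium the 0 genes called became 2 under upper quartile scaling, 4 in DESeq2 and 4 with the groups compared alone, and 0 to 0 without 1 library. In irradiated against plain APTK medium it became 1 with no filter and 0 to 1 without 1 library. Over both media it was 1 to 3 and for the difference of effects 0 to 1 without 1 library. Over all genes, irradiated APTKA against APTKA called 108, and 316 with no filter, 307 in DESeq2, 512 with the groups compared alone and 34 to 146 without 1 library. Irradiated APTK against APTK called 205, and 492, 439, 10 and 32 to 1271 (the last without irradiated APTK IV). Both media together called 408, and 639 with no filter, 746 in DESeq2 and 195 to 1231 without 1 library (the last again without irradiated APTK IV). The difference of effects called 27, and 209, 114 and 4 to 307 (the last without the same library). The causes were not tested. Upper quartile scaling changed the split from 67 higher and 41 lower to 47 and 47 in APTKA medium, and from 221 and 187 to 147 and 225 over both media. With the replicate number as a replicate block the 45 genes gave 31, 22, 24, 0, 0, 2, 21 and 0 calls, in the order APTKA against untreated, APTK against untreated, APTKA against APTK, irradiated against plain APTKA, irradiated against plain APTK, both media together, irradiated APTKA against irradiated APTK, and the difference of effects, and all genes 9027, 6345, 9277, 82, 178, 313, 9031 and 22. Under the block Lig3 lost its call with APTKA medium (adjusted p = 0.0605) and Ogg1 gained one with APTK medium (-0.24, adjusted p = 0.0425). The numbers share no stated source, and 40 same-number pairs of libraries correlated at -0.161 to 0.164 in their deviations, with 6 of 20 libraries closest to their own number. Genes of low level, such as Rad51b and Rad51c, rest on few counts.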
